A study of Mus musculus with 8 samples.

Results

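The genes described here are those through which muscle controls protein and organelle breakdown: FoxO transcription factors and their partners, ubiquitin ligases of muscle atrophy, autophagy genes, and lysosome genes. They were taken as a fixed list of 36 symbols matched to the gene column of the expression table. Of these, 35 were found among the 23930 genes of the table, and the other, Map1lc3b, is not analysed here. RNA of mouse tibialis anterior, a fast muscle of the lower leg, was measured in 4 KO and 4 WT libraries with a targeted panel that amplifies 1 short segment (amplicon) of each gene.

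The KO libraries came from mice labelled HSA-Cre/Lox-SDHC, in which tamoxifen triggers loss of Sdhc in skeletal muscle; its product anchors succinate dehydrogenase, complex II of the respiratory chain, in the inner mitochondrial membrane. The WT libraries came from littermates that carried HSA-Cre and no floxed allele, so the recombinase and tamoxifen are common to both groups. Induction was at an age of 12 weeks in both groups, and the muscle was collected 20 weeks afterwards. The HSA-Cre transgene uses a skeletal actin promoter that is active in muscle fibres, so the other cells of the tissue are not targeted. The strain is labelled C57BL/7 in KO 1, C57BL/8 in KO 2 to KO 4 and C57BL/6 in WT. Whether libraries stand for different animals is not stated, and p-values cover the spread among libraries, which may be technical. The series asks how complex II bears on respiration, fatigue and mass of muscle.

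Muscle protein is broken down by the proteasome, which takes proteins tagged with ubiquitin, and by autophagy, which delivers cytoplasm and organelles to the lysosome. FoxO factors link both routes. When AKT signalling falls they enter the nucleus and induce ubiquitin ligases such as Fbxo32 and Trim63, together with autophagy genes. Lysosomal genes are in part under the control of Tfeb, which binds an E-box known as the CLEAR element.

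The 8 libraries held 4.77 to 7.28 M reads (M, 1000000), 3 reads were worth 0.412 to 0.628 RPM (reads per 1000000 reads), and each of the 35 genes had between 63 and 19245 reads per library. Sdhc, the deleted gene, averaged 26.0 ± 16.0 RPM in KO, compared with 696 ± 91.8 RPM in WT (SD, n = 4 each; the place of its amplicon relative to the deleted segment is not given), with KO at 3.73% of WT (two-sided exact permutation test over 70 assignments, p = 0.0286, the lowest possible with 4 against 4). The labelled tissue was checked against 8 defining genes of muscle fibres, which were all present and summed to between 96698 and 150795 RPM in KO and between 122799 and 175346 RPM across WT. The median gene lay 0.13 higher in KO on the log2(RPM + 1) scale. Log2 fold changes (KO over WT) are therefore given relative to that median, and their 95% intervals are shifted by it and treat it as fixed. Adjusted p-values come from limma on the deposited scale over all 11087 genes tested, so they concern the shift from 0 on that scale. KO 4 and WT 1 held 98.9 and 77.3 RPM of Xist, an RNA made from the inactive X chromosome. The other 6 libraries held at most 0.334 RPM, and sex is not among the labels used here. KO 4 also held the most Sdhc of the KO libraries, at 49.4 RPM, against 17.1, 14.5 and 22.8 RPM in KO 1 to KO 3.

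None of the 35 genes passed an adjusted p under 0.05 in limma, where 0.803% of all genes tested did (0.523% higher and 0.280% lower, or 58 and 31 genes; with TMM factors, trimmed mean of M values, 39 higher and 65 lower). The lowest adjusted p was 0.0575, for Mul1. Without adjustment 7 of the 35 genes had p under 0.05 (20.0%, against 16.1% of all genes tested). Of these, 6 were higher in KO (Mul1, Lamp2, Fbxo30, Gabarapl1, Klf15 and Nedd4), where 13.1% of all genes were, and 1 was lower (Map1lc3a), where 3.07% were. edgeR on recovered reads called 1 of the 35 (Map1lc3a, lower) and 0.830% of all genes, and DESeq2 called 2 (Map1lc3a, lower, and Mul1, higher) and 2.16% of all genes. Overlap was read on the deposited RPM scale, without the shift by the median gene that the fold changes carry. The KO and WT libraries did not overlap in 4 of the 35 genes (11.4%). Of these, 3 were higher (Klf15, Mul1 and Lamp2) and 1 was lower (Map1lc3a) in KO. Among all genes tested the share was 9.10%, with 7.50% higher and 1.61% lower. The median relative log2 fold change of the 35 was -0.01, where that of all genes is 0.00 by construction. Of the 35, 33 lay within 0.5 of the median of all genes, while 6.70% of all genes lay further out. The relative values ran from -0.60 for Map1lc3a to 0.49 for Mul1 and Klf15.

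**Figure D1:**
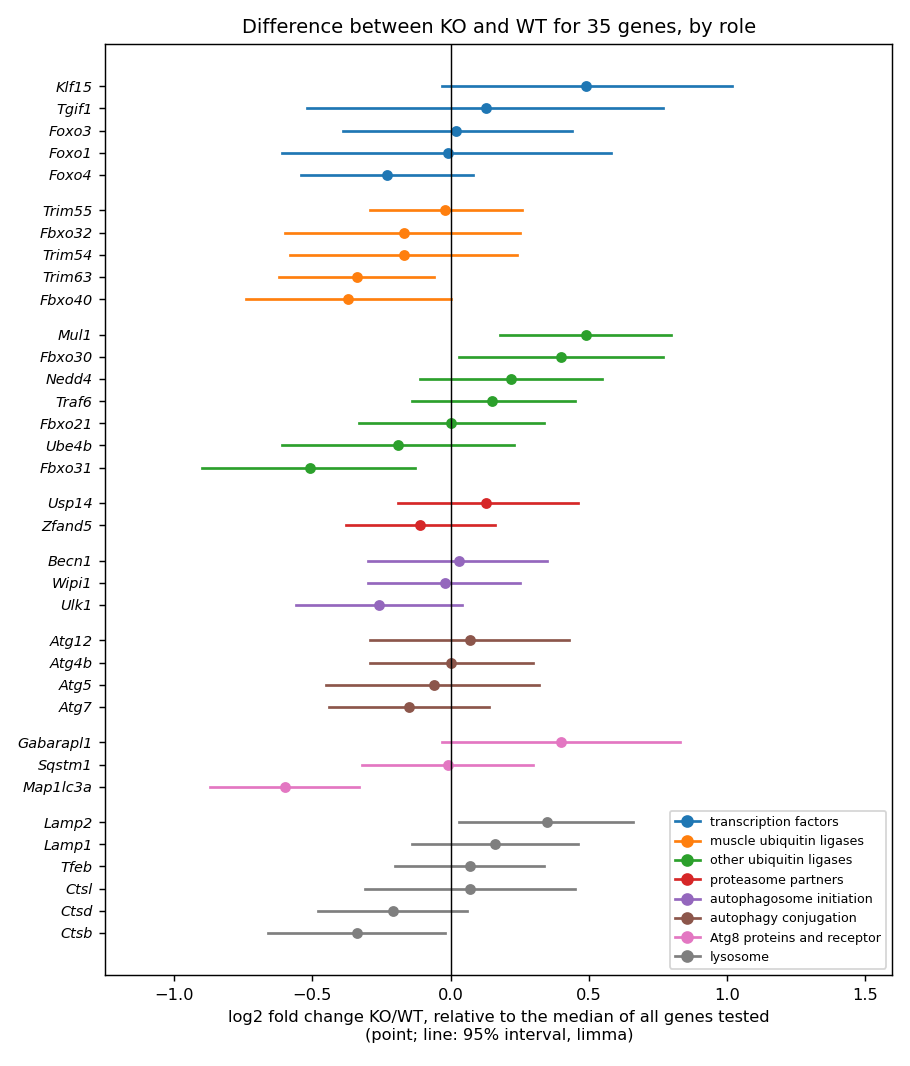
Log2 fold change of KO over WT relative to the median of all genes tested (x axis) for the 35 genes, ordered by role (y axis and colour); points are limma estimates and lines their 95% intervals, from 4 KO and 4 WT libraries. The intervals of Mul1, Fbxo30 and Lamp2 lie above 0 and those of Map1lc3a, Fbxo31, Trim63 and Ctsb below it, none of these with an adjusted p under 0.05.

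Known binding motifs lie near the starts of some of these genes, and 4 windows of 300 bases (250 before and 50 after the RefSeq start, GRCm38.p6) are shown: Trim63 as the FoxO-controlled ligase, Mul1 and Klf15 as 2 of the 3 genes higher in KO without overlap, and Ctsd as a lysosomal gene that did not pass. Capitals mark GTAAACA read on either strand (the FoxO site), CACGTG (the E-box, the same on both strands) and TCACGTGA (the E-box with the flanks of a CLEAR element, which contains CACGTG).
Trim63, chr4:134314870-134315169, plus strand: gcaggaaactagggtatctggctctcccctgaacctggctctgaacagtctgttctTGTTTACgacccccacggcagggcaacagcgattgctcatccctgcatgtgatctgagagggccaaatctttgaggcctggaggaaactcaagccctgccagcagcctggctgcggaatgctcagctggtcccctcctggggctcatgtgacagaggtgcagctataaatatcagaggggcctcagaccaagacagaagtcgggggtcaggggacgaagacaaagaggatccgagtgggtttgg
Mul1, chr4:138434422-138434721, plus strand: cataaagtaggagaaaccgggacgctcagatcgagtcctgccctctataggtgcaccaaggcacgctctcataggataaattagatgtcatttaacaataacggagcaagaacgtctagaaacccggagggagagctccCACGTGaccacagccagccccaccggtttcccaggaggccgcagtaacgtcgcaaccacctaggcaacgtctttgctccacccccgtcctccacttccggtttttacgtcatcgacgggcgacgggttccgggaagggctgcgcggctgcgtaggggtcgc
Klf15, chr6:90462326-90462625, plus strand: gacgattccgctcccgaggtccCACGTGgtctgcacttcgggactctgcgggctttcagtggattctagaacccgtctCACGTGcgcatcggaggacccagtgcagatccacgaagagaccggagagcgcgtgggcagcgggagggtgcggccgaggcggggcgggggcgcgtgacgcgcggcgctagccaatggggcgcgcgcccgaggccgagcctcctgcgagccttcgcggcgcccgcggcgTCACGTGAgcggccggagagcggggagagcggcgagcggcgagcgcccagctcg
Ctsd, chr7:142387778-142388077, minus strand: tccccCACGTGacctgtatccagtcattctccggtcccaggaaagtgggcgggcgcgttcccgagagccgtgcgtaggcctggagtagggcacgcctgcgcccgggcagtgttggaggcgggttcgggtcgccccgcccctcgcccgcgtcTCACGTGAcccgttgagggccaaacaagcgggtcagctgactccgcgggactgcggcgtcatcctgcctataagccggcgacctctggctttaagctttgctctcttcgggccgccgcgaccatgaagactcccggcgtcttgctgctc

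None of the FoxO factors passed the test, and in each the KO and WT libraries overlapped. Foxo1 stood at 13.3, 13.2, 26.2 and 40.7 RPM in KO 1 to KO 4 and at 19.3, 15.7, 25.9 and 17.5 RPM in WT 1 to WT 4 (log2 fold change -0.01 on the relative scale, 95% interval -0.61 to 0.58, limma adjusted p = 0.877). The KO libraries lay on both sides of the WT libraries. Foxo3 stood at 19.7, 22.2, 24.1 and 40.0 RPM in KO and at 28.8, 20.5, 21.5 and 21.5 RPM in WT (0.02, interval -0.39 to 0.44, adjusted p = 0.737). KO 4 was the highest of the 8 libraries for both genes. Foxo4, the X-linked member of the family, averaged 121 ± 25.3 RPM in KO and 129 ± 12.0 RPM in WT (adjusted p = 0.759). The direction of Foxo1 turned positive in edgeR (0.11) and in DESeq2 (0.09), and that of Foxo3 turned negative without KO 4 (-0.18). Because FoxO activity is set by phosphorylation and location of the protein, these values describe the transcripts only.

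Klf15, a zinc-finger factor that glucocorticoids induce and that acts on some of the same atrophy genes, had the highest relative log2 fold change of the transcription factors, without passing the test. It stood at 52.7, 51.3, 49.8 and 60.6 RPM in KO and at 46.8, 16.9, 49.8 and 35.3 RPM in WT (0.49, interval -0.03 to 1.02, limma adjusted p = 0.236). The groups only just failed to overlap, with KO 3 and WT 3 alike at 49.8 RPM, and WT 2 alone was far below the rest. Divided by their TMM factors (1.139 and 0.898), KO 3 fell below WT 3, so on that scale the groups overlapped. Across the alternative settings its relative value ran from 0.16, without WT 2, to 0.77, and its adjusted p from 0.131 to 0.615. Tgif1, a repressor in the transforming growth factor beta pathway, averaged 23.9 ± 14.8 RPM in KO and 18.1 ± 5.13 RPM in WT (adjusted p = 0.712), with KO 3 at 45.0 RPM and the other KO libraries between 12.4 and 23.2 RPM.

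None of the 5 muscle-restricted ligases passed the test or came below an unadjusted p of 0.05. Of these, Fbxo32 and Trim63 serve as markers of wasting. Fbxo32 (atrogin; chr15:58175879-58214932 on GRCm38, minus strand, GENCODE annotation), the F-box protein that most atrophy models induce, stood at 530.0, 752, 1140.0 and 565 RPM in KO 1 to KO 4 and at 623, 795, 694 and 852 RPM in WT 1 to WT 4. KO 3 was the highest of the 8 libraries, while KO 1 and KO 4 were the lowest. The relative log2 fold change was -0.17 with an interval of -0.60 to 0.25, which is 0.662-fold to 1.19-fold (limma adjusted p = 0.928, n = 4 each). Without KO 3 the value was -0.36. An annotated gene, Gm15943, lies on the other strand at Fbxo32. Trim63 (MuRF; chr4:134315120-134329629, plus strand), the ring-finger ligase of thick-filament proteins, stood at 477, 683, 542 and 594 RPM in KO and at 621, 622, 723 and 681 RPM in WT. In 3 of the 4 KO libraries it lay below every WT library. Its relative log2 fold change was -0.34 (interval -0.62 to -0.06, or 0.649-fold to 0.961-fold; adjusted p = 0.434).

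The relatives of Trim63, which also bind the sarcomere, overlapped between groups. Trim54 averaged 152 ± 45.0 RPM in KO and 154 ± 28.7 RPM in WT (adjusted p = 0.928). Trim55 ranged between 91.3 and 113 RPM in KO and between 89.4 and 107 RPM in WT (adjusted p = 0.706). Fbxo40, an F-box protein that in cultured muscle cells promotes loss of an insulin receptor substrate, averaged 323 ± 86.6 RPM in KO and 372 ± 37.3 RPM in WT, which gave a relative log2 fold change of -0.37 (interval -0.74 to 0.00, adjusted p = 0.508). KO 3 was its lowest library, at 211 RPM, and without KO 3 the value was -0.13. All 5 muscle ligases lay below the median of all genes on the relative scale, from -0.37 to -0.02, and Trim55 moved above it in 4 settings (0.07 with no filter, 0.02 with 5 RPM added, and 0.03 without KO 2 or without WT 2). Trim54 stood at 0.01 without WT 3 and KO 3. Transcripts of the 8 muscle fibre genes had a median of -0.38 on the same scale, and their part in the values of the muscle ligases was not tested. In whole muscle, fewer cells of a type and less RNA per cell cannot be told apart.

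**Figure D2:**
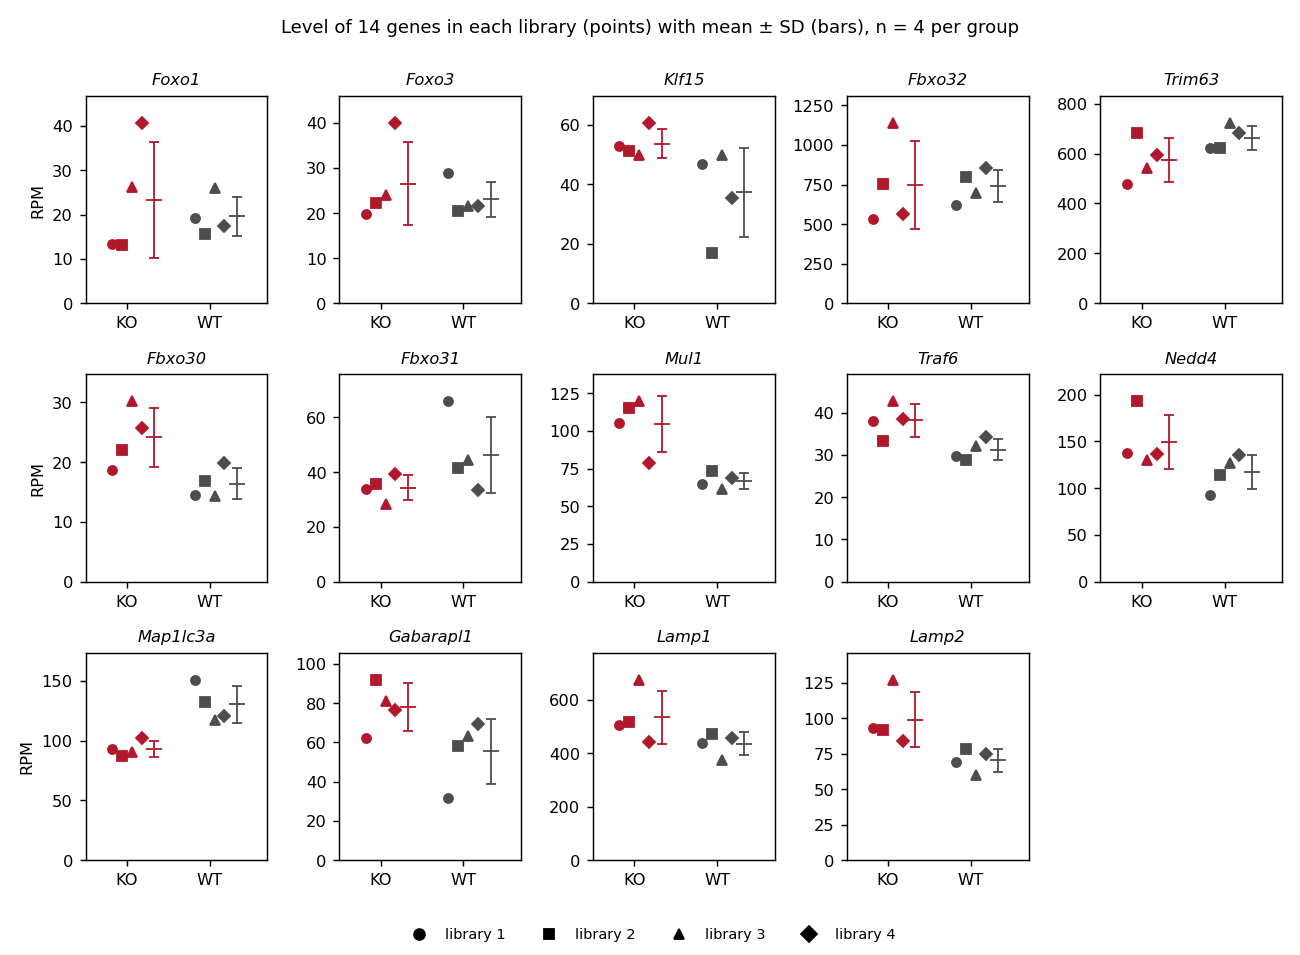
Level in RPM (y axis, from 0) of 14 genes in each of the 4 KO (red, left) and 4 WT (grey, right) libraries, with the library number given by the symbol and mean ± SD beside the points. KO and WT libraries do not overlap in Klf15, Mul1, Map1lc3a and Lamp2, whereas Fbxo32 and Trim63 overlap.

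Among the other ubiquitin ligases Mul1 came closest to the threshold. Mul1 (chr4:138434671-138442265, plus strand) encodes a ligase of the mitochondrial outer membrane, and FoxO induces it in wasting mouse muscle. It stood at 105, 115, 119.6 and 78.7 RPM in KO 1 to KO 4 and at 64.6, 73.5, 61.2 and 68.8 RPM in WT 1 to WT 4. Every KO library lay above every WT library, and KO 4 was the lowest of the KO libraries. The relative log2 fold change was 0.49 (SE 0.15 on the deposited scale, interval 0.18 to 0.80; limma adjusted p = 0.0575, n = 4 each). It passed in 5 of 22 alternative settings: with array weights (0.0346), without KO 4 (0.0111), in DESeq2 (0.0376), with a term for the libraries with Xist (0.0239) and in the 6 libraries without Xist (0.00794), where 1.63%, 2.40%, 2.16%, 2.12% and 3.62% of all genes passed. In edgeR its adjusted p was 0.10, and over the 22 alternatives the relative value ran from 0.44 to 0.62 and the adjusted p from 0.00794 to 0.406.

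Fbxo30, an F-box ligase that FoxO induces in denervated mouse muscle, stood at 18.7, 22, 30.2 and 25.8 RPM in KO and at 14.5, 16.9, 14.3 and 19.9 RPM in WT (0.40 in relative log2 fold change, limma adjusted p = 0.163). Only KO 1 and WT 4 overlapped. Fbxo31, an F-box protein of cell cycle control, stood at 33.8, 35.6, 28.4 and 39.4 RPM in KO and at 65.9, 41.4, 44.3 and 33.5 RPM in WT (-0.51, adjusted p = 0.310). The WT spread came from WT 1 at the top and WT 4 at the bottom, and WT 4 lay below 3 of the KO libraries; without WT 1 the value was -0.33. Fbxo21, another F-box gene that FoxO induces in mouse muscle, averaged 28.4 ± 0.998 RPM in KO and 26.3 ± 5.30 RPM in WT (adjusted p = 0.720).

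The signalling ligase Traf6, which also feeds the NF-kappa-B pathway, stood at 38.0, 33.3, 42.7 and 38.6 RPM in KO and at 29.8, 28.7, 32.1 and 34.2 RPM in WT (0.15 in relative log2 fold change, limma adjusted p = 0.328). Nedd4, a ligase of membrane proteins, stood at 138, 193, 129.9 and 137 RPM in KO and at 93.1, 114, 127 and 135 RPM in WT (0.22, adjusted p = 0.291). KO 2 alone set the top of its KO range, and the other KO libraries lay near WT 3 and WT 4; the value was 0.08 without KO 2 and 0.12 without WT 1. Ube4b, which extends ubiquitin chains, averaged 48.4 ± 17.4 RPM in KO and 48.4 ± 3.80 RPM in WT, equal means with a wider KO spread. Of 2 genes whose products act at the proteasome, Zfand5, an activator induced in atrophy, averaged 173 ± 13.2 RPM in KO against 172 ± 20.7 RPM in WT. The deubiquitinase Usp14 averaged 25.6 ± 2.81 RPM in KO and 21.3 ± 3.09 RPM in WT, with adjusted p of 0.966 for Zfand5 and 0.415 for Usp14.

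None of the 3 genes that start the autophagosome passed the test. Ulk1, the kinase that begins the process, averaged 101 ± 18.8 RPM in KO and 110.0 ± 7.87 RPM in WT, a relative log2 fold change of -0.26 (limma adjusted p = 0.656; -0.17 without KO 3). Becn1, a subunit of the lipid kinase complex that follows, averaged 91.8 ± 19.3 RPM in KO and 81.8 ± 10.1 RPM in WT (0.03, adjusted p = 0.652), with KO 3 at 120.1 RPM. Wipi1, which binds the lipid made by that complex, averaged 55.6 ± 6.52 RPM in KO and 51.6 ± 2.52 RPM in WT (-0.02, adjusted p = 0.731).

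The conjugation machinery, which fixes Atg8-type proteins to the growing membrane, lay within 0.15 of the median of all genes. Atg5 averaged 19.0 ± 4.24 RPM in KO and 18.1 ± 3.67 RPM in WT. Its partner Atg12 averaged 23.2 ± 5.86 RPM in KO and 19.7 ± 1.11 RPM in WT. Atg7, the activating enzyme of the pathway, averaged 40.3 ± 3.10 RPM in KO against 41.1 ± 4.14 RPM in WT. The processing protease Atg4b averaged 29.6 ± 2.20 RPM in KO and 27.0 ± 2.76 RPM in WT. Adjusted p of the 4 genes lay between 0.588 and 0.946 in limma, and the relative log2 fold changes ran from -0.15 to 0.07.

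Among the Atg8-type proteins, which coat the autophagosome and hold its cargo receptors, the 2 measured genes lay on opposite sides of the median. Map1lc3a (chr2:155276297-155278073, plus strand), a light chain that carries the lipid anchor, stood at 93.0, 87.1, 90.1 and 102 RPM in KO 1 to KO 4 and at 151, 132, 117 and 121 RPM in WT 1 to WT 4, so that every KO library lay below every WT library. Its relative log2 fold change was -0.60 (SE 0.13 on the deposited scale, interval -0.87 to -0.33, or 0.547-fold to 0.796-fold; limma adjusted p = 0.0879, n = 4 each). It passed in 3 of 22 alternative settings, with TMM factors (0.0312, where 0.934% of all genes passed), in edgeR (0.0363) and in DESeq2 (0.00149). Over the 22 alternatives its relative value lay between -0.65 and -0.51 and its adjusted p between 0.00149 and 0.352. Gabarapl1, a FoxO target in mouse muscle, stood at 62.1, 91.9, 81.0 and 76.5 RPM in KO and at 31.7, 58.1, 63.0 and 69.1 RPM in WT (0.40, interval -0.03 to 0.83, adjusted p = 0.226). WT 1 was by far its lowest library, and KO 1 lay among the WT libraries; the value was 0.16 without WT 1 and 0.16 in the 6 libraries without Xist. The cargo receptor Sqstm1, whose product links ubiquitin to these proteins, averaged 720.1 ± 140.1 RPM in KO and 658 ± 61.9 RPM in WT (-0.01, adjusted p = 0.729).

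None of the 6 lysosomal genes passed the test, and Lamp2 came closest. Lamp2 (chrX:38401357-38456454, minus strand), a membrane glycoprotein needed for fusion with autophagosomes, stood at 92.8, 91.7, 127 and 83.6 RPM in KO and at 68.8, 78.0, 59.7 and 74.8 RPM in WT. The groups did not overlap, and KO 3 was well above the other KO libraries (relative log2 fold change 0.35, interval 0.03 to 0.66, limma adjusted p = 0.149; 0.26 without KO 3). Lamp1, its close relative, stood at 506, 517, 676 and 442 RPM in KO and at 437, 471, 374 and 459 RPM in WT (0.16, adjusted p = 0.334), with KO 4 inside the WT range. Tfeb averaged 184 ± 17.5 RPM in KO and 161 ± 15.9 RPM in WT (0.07, adjusted p = 0.448).

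The cathepsins, the proteases of the lysosome, lay on both sides of the median of all genes. Ctsl, which FoxO induces in wasting mouse muscle, stood at 206 and 216 RPM in KO 1 and KO 2 but at 382 and 344 RPM in KO 3 and KO 4, around a WT range of 226 to 268 RPM (0.07 in relative log2 fold change, limma adjusted p = 0.604). Ctsd averaged 2598 ± 107 RPM in KO and 2755 ± 258 RPM in WT (-0.21, adjusted p = 0.789). Ctsb averaged 369.7 ± 85.2 RPM in KO and 423 ± 31.4 RPM in WT (-0.34, interval -0.66 to -0.02, adjusted p = 0.488), and KO 4 at 489 RPM was its highest library; without KO 3 the value was -0.19. Macrophages are rich in lysosomes, and 10 macrophage markers summed to between 95.7 and 143 RPM in KO and between 70.3 and 124 RPM in WT. Of the 8 that were tested, 1 (Cd68) rose, where 0.523% of all genes did. No other of the 8 had an unadjusted p under 0.05, and the list median relative log2 fold change was 0.11. Cd68, itself a lysosomal glycoprotein, averaged 9.95 ± 2.97 RPM in KO and 3.92 ± 0.865 RPM in WT (1.01 in relative log2 fold change, limma adjusted p = 0.0192; called in 17 of 22 alternatives, adjusted p 0.00220 to 0.215). The call was lost with no filter (0.215), without KO 2 (0.0659), without WT 2 (0.0553), without WT 3 (0.0955) and without WT 3 and KO 3 together (0.155). Endothelial markers (10 genes) summed to between 593 and 799.5 RPM in KO and between 403 and 568 RPM in WT, with 0 of 10 passing in limma (0.803% of all genes) and 7 higher at an unadjusted p under 0.05 (13.1% of all genes). Adipocyte markers (6 genes, 3 tested) summed to between 296 and 355 RPM in KO and between 173 and 244 RPM in WT. Of the 3, Fabp4, a fatty acid carrier that endothelium also makes, passed as higher (limma adjusted p = 0.0404), where 0.523% of all genes did. It was called in 12 of 22 alternatives, with adjusted p of 0.0123 to 0.352. Fabp4 alone averaged 302 RPM in KO and 194 RPM in WT, where the sums averaged 317 and 209 RPM. The median relative log2 fold change of the adipocyte list was 0.07. Fabp4 lost its call without KO 1, KO 2, KO 3, WT 2 or WT 3 in turn (0.0787 to 0.158). With all 8 libraries kept, the call was lost with TMM factors (0.0734), no variance trend (0.0959), edgeR (0.0857) and no filter (0.225). It was also lost without WT 3 and KO 3 together (0.352). Tendon markers (6 genes, all tested) summed to between 73.3 and 187 RPM in KO and between 135 and 216 RPM in WT. Scx, a tendon transcription factor, passed as lower (limma adjusted p = 0.0164), where 0.280% of all genes did. It was called in 18 of 22 alternatives. That call was lost with no filter (0.215), without WT 2 (0.0602), without WT 3 (0.0592) and without WT 3 and KO 3 (0.152). No other of the 6 had an unadjusted p under 0.05, and the list median relative log2 fold change was -0.53. The part of these cells in the lysosomal values was not tested.

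**Figure D3:**
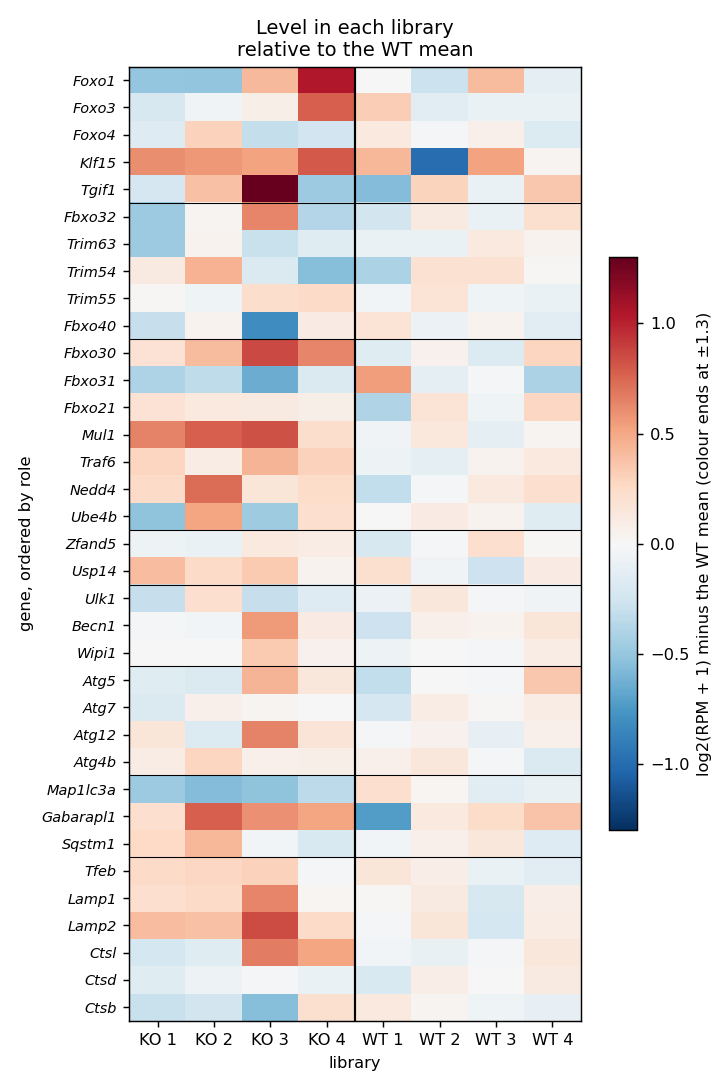
Log2(RPM + 1) minus the mean of the 4 WT libraries (colour) for the 35 genes (rows, by role) in KO 1 to KO 4 (left) and WT 1 to WT 4 (right). Tgif1, Fbxo32, Lamp1, Lamp2 and Becn1 are highest in KO 3, Foxo1 and Foxo3 are highest in KO 4, and Map1lc3a is below the WT mean in all 4 KO libraries.

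Most of the 35 genes varied more among KO libraries than among WT libraries. Their coefficient of variation had a median of 18.6% in KO and 10.2% in WT, and it was larger in KO for 24 of the 35, a difference that was not tested. Across all genes tested the medians were 18.6% in KO and 17.0% in WT, and 55.5% of genes varied more in KO. Those take in genes near the filter of 1 RPM, which hold few reads, whereas the 35 had at least 63 reads per library. The most variable in KO were Tgif1 (62.0%), Foxo1 (55.9%) and Fbxo32 (37.5%), and the most variable in WT were Klf15 (40.1%), Fbxo31 (29.9%) and Gabarapl1 (29.7%). KO 3 was the highest of the 8 libraries for 13 of the 35 genes (37.1%) and for 32.6% of all genes tested. KO 3 also had the highest TMM factor, 1.139, and the lowest sum of muscle fibre markers, 96698 RPM.

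In the windows printed above, the FoxO site of Trim63 began 194 bases before the start, and Trim63 was the only gene with that motif among the 27 of the 35 genes that had windows (35 windows in all). Of all 32851 mouse windows 3.65% hold it. The E-box CACGTG was present in 8 of the 35 windows, at 8 genes (Atg5, Atg7, Ctsd, Ctsl, Klf15, Lamp1, Mul1 and Ube4b), against 7.15% of all windows. In Mul1 it began 111 bases before the start. TCACGTGA was present at Ctsd, Klf15 and Ube4b, against 0.974% of all windows, and began 99 bases before the start in Ctsd and 4 bases before it in Klf15. The genes with an E-box lay on both sides of the median of all genes: Mul1 stood at 0.49, Klf15 at 0.49, Lamp1 at 0.16, Ctsl at 0.07, Atg5 at -0.06, Atg7 at -0.15, Ube4b at -0.19 and Ctsd at -0.21 in relative log2 fold change. A match describes letters in these windows and not binding.

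Neighbouring pathways were read from 5 further lists. In other core autophagy genes 0 of 30 tested members passed in limma (0 in edgeR and in DESeq2). At an unadjusted p under 0.05, 2 were higher and 0 lower (6.67%, against 16.1% of all genes). The list had a median relative log2 fold change of -0.11. Those with the smallest p were Pik3c3, the catalytic lipid kinase that works with Becn1 (16.4 ± 2.82 RPM in KO, 12.3 ± 0.716 RPM in WT, adjusted p = 0.270), Plekhm1, an adaptor of lysosome fusion (0.290), the protease Atg4c (0.325) and Uvrag, a partner of Becn1 (0.354). In other lysosome genes 0 of 46 passed (0 in edgeR and in DESeq2). At an unadjusted p under 0.05, 7 were higher and 0 lower (15.2%, against 16.1% of all genes). Among all genes 13.1% were higher and 3.07% lower. The median of the lysosome list was 0.02. Its smallest p-values were those of Atp6v1d, Atp6v1h and Atp6v1e1, subunits of the proton pump that acidifies the lysosome, and Fnip1, a partner of folliculin. Atp6v1d averaged 103 ± 40.8 RPM in KO, with KO 3 at 162 RPM, and 62.4 ± 7.71 RPM in WT (0.52, adjusted p = 0.144).

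In autophagy receptors and mitophagy genes 1 of 15 tested members rose and none fell, where 0.523% and 0.280% of all genes did. At an unadjusted p under 0.05, 6 of the 15 were higher and 0 lower (40.0%, against 16.1% of all genes), and the median relative log2 fold change was 0.04. Stbd1, a glycogen-binding protein held to deliver glycogen to the lysosome, stood at 242, 335, 449 and 132 RPM in KO 1 to KO 4 and at 96.6, 80.8, 85.5 and 109.8 RPM in WT 1 to WT 4. All KO libraries lay above all WT libraries, and KO 4 was the nearest to them. The relative log2 fold change was 1.37 (SE 0.26 on the deposited scale, limma adjusted p = 0.0158; alternatives 1.45e-06 to 0.295). It lost its call in 4 of 22 alternatives: with no filter (0.295), without WT 2 (0.0531), without WT 3 (0.0676), and without WT 3 and KO 3 together (0.184). The receptor Nbr1, related in function to Sqstm1, averaged 88.4 ± 17.0 RPM in KO and 62.8 ± 3.0 RPM in WT (adjusted p = 0.145). The mitophagy receptor Bnip3 averaged 75.4 ± 7.35 RPM in KO and 55.9 ± 12.0 RPM in WT (0.194), and Pink1, the kinase that marks damaged mitochondria, averaged 686 ± 55.6 RPM in KO and 697 ± 147 RPM in WT (0.994). Nbr1, Bnip3 and Pink1 were named after their values were seen.

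In other FoxO targets and regulators 1 of 28 tested members rose and 2 fell, where 0.523% and 0.280% of all genes did. At an unadjusted p under 0.05, 4 were higher and 2 lower (21.4%, against 16.1% of all genes). Gadd45a, a growth arrest gene induced in denervated muscle, averaged 182 ± 32.2 RPM in KO and 60.9 ± 17.8 RPM in WT, a relative log2 fold change of 1.46 (limma adjusted p = 3.56e-04), and passed in 21 of 22 alternatives. The annotation places another gene, E230016M11Rik, on the other strand there. Sgk1, a kinase that phosphorylates FoxO factors, stood at 231, 181, 186 and 212 RPM in KO and at 283, 301, 369 and 380.4 RPM in WT, without overlap (-0.84, adjusted p = 0.0219). Mstn (myostatin), the secreted brake on muscle growth, averaged 37.5 ± 3.35 RPM in KO and 60.9 ± 6.42 RPM in WT (-0.81, adjusted p = 0.0251). The calls of Sgk1 and Mstn depended in part on the settings and on which libraries were kept. Sgk1 passed in 14 and Mstn in 13 of 22 alternatives, with relative values of -0.93 to -0.68 for Sgk1 and -0.87 to -0.72 for Mstn throughout. Both calls held without KO 4 and without WT 1, and both were lost without KO 2, without WT 2, without WT 3 and without WT 4, Sgk1 also without KO 3 and Mstn without KO 1, with adjusted p of 0.0602 to 0.118 for Sgk1 and 0.0535 to 0.0934 for Mstn in those fits. Both calls were also lost with no filter, with no variance trend, and without WT 3 and KO 3 together. Over the 22 alternatives the adjusted p reached 0.262 for Sgk1 and 0.121 for Mstn. The median of the list was 0.03.

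In other ubiquitin genes of muscle 0 of 42 passed in limma, and the median was -0.09. At an unadjusted p under 0.05, 5 were higher and 2 lower (16.7%, against 16.1% of all genes). Of the 42, edgeR called 1 and DESeq2 2, where 0.830% and 2.16% of all genes were called. The smallest p was that of Asb2, a muscle ligase subunit that directs loss of filamins, at 305, 442, 543 and 449 RPM in KO and at 765, 703, 605 and 665 RPM in WT (-0.80 in relative log2 fold change, limma adjusted p = 0.0574; edgeR adjusted p = 0.0121; alternatives 2.39e-05 to 0.319). The groups did not overlap, and Asb2 was called lower in 8 of 22 alternatives. Fbxl22, an F-box protein of striated muscle, averaged 6.09 ± 2.15 RPM in KO and 2.39 ± 0.849 RPM in WT (0.92, adjusted p = 0.0577; called in 6 of 21 alternatives, 0.00545 to 0.427). Its gene overlaps Herc1 in the annotation. Mylip, a ligase of lipoprotein receptors (0.46, adjusted p = 0.0674; called in 3 of 22 alternatives, 0.0441 to 0.416), and Ube2o, a ubiquitin-conjugating enzyme (0.26, adjusted p = 0.199), did not pass in the limma fit of all 8 libraries. Over the 5 lists together 4 of 161 tested genes passed, 2 higher and 2 lower, against 0.803% of all genes.

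**Figure D4:**
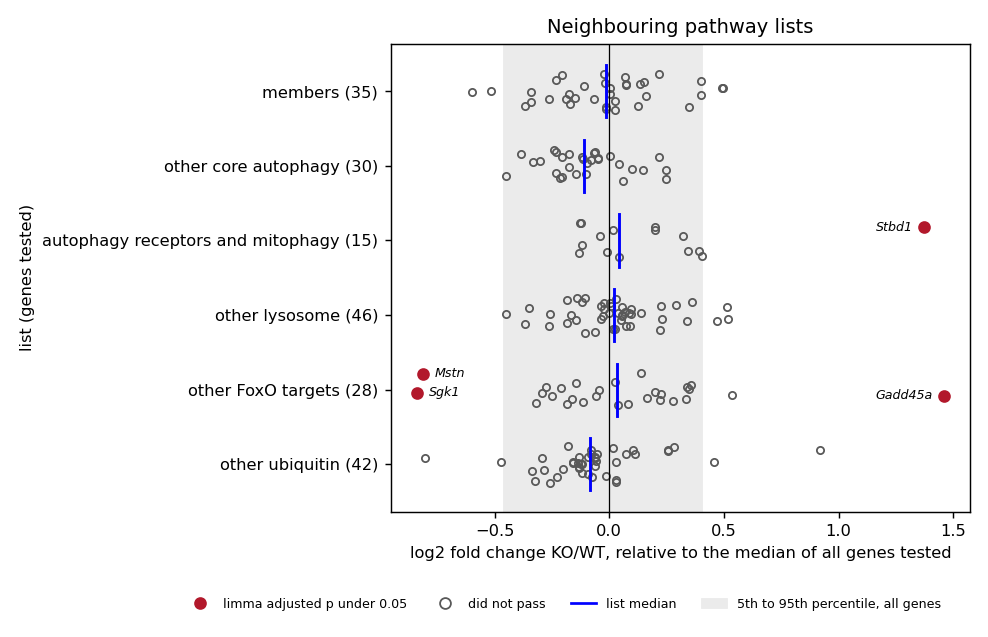
Log2 fold change of KO over WT relative to the median of all genes tested (x axis) for the 35 genes and 5 neighbouring lists (y axis, genes tested in brackets); filled red points passed limma at an adjusted p under 0.05, open points did not, blue bars are list medians, and the grey band runs from the 5th to the 95th percentile of all genes (-0.46 to 0.40). List medians lie between -0.11 and 0.04, and Stbd1, Gadd45a, Sgk1 and Mstn are the genes that passed.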

How the data were processed

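The authors deposited 1 table of RPM (reads per 1000000 reads) for 8 Ion AmpliSeq Transcriptome Mouse libraries, 1 amplicon per gene. Per the submitters' processing notes the Transcriptome Analysis Console was used. For the aligner, build, filters and strand, the sources used here give no statement. Columns were matched to samples by barcode. Every value was a whole multiple of 1 read (100.0% within 0.05 reads), which gave the library totals. Reads carry no molecular identifiers, so the floor of 3 reads covers counting error only. Levels of different genes are not compared, since amplicons differ in efficiency.

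The 11087 genes that reached 1 RPM in 4 or more libraries, all 35 members among them, were tested for genotype with limma 3.58.1 (R 4.3.3) on log2(RPM + 1), with moderated variances that follow a trend and Benjamini-Hochberg adjustment (threshold 0.05, two-sided). Fold changes on this scale understate those of low genes. Alternatives were pseudocounts of 0.5 and 5, other filters, TMM or quantile scaling, no variance trend, array weights, a replicate block, omission of libraries, Xist-based fits, and edgeR 4.0.16 and DESeq2 1.42.0 on recovered reads. The fits were tested on simulated data. Values in every library are given for members past the threshold, without overlap between groups or among the 10 smallest p, and for Fbxo32, Trim63, Foxo1, Foxo3 and Klf15. Pathway genes are those that passed or, failing that, the 4 with the smallest p. Members, lists, rules and alternatives were chosen with earlier results of these data known.

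In GENCODE on GRCm38, 13 of the 35 members overlap an opposite-strand gene and 8 a same-strand gene, with which they could share reads. Replicates differed by more than counting noise (lowest chi-square over its degrees of freedom 8.73). Figures used matplotlib 3.10.9 in Python 3.11.15.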

Additional observations from a re-analysis of the deposited data

Results flagged for a closer look

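The 35 genes form 70 groups of 4 libraries, and in 5 of these 1 library stood apart from the other 3 by more than Dixon's 95% critical value. Chance alone gives about 1 in 20. Over all 104 groups looked at, which go beyond the 35 genes, 5 were flagged, all of them among these 70. Nedd4 was at 193 RPM in KO 2, while the remaining KO libraries lay between 129.9 and 138 RPM. Wipi1 was at 65.3 RPM in KO 3, the remaining KO libraries lying between 51.6 and 53.7 RPM. Atg4b was at 32.9 RPM in KO 2, with 28.2 to 28.9 RPM elsewhere in KO. Foxo3 was at 28.8 RPM in WT 1, with 20.5 to 21.5 RPM elsewhere in WT. Trim55 was at 107 RPM in WT 2, with 89.4 to 92.4 RPM elsewhere in WT.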

How the results depend on the processing

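Over 22 alternatives, 716 of 770 pairs of a member and an alternative stayed on the same side of the threshold with no change of sign. A call was gained in 8 pairs (Mul1 in 5 alternatives, Map1lc3a in 3). No call could be lost, since no member was called in the main analysis. Direction changed in 46 pairs, all of them for genes whose main relative log2 fold change was at most 0.19 in size. Signs were compared at 2 decimals, so Fbxo21 and Atg4b, at 0.00 in the main analysis, have no direction and count as unchanged; over the alternatives Fbxo21 ran from -0.12 (without WT 1) to 0.09 and Atg4b from -0.08 (without WT 4) to 0.09. The median of the members stayed between -0.07 and 0.07. The main counts of calls are 89 genes, 0 members and 4 genes of the other lists. All genes numbered 12 with no filter, 181 with array weights, 240 in DESeq2, 235 with a term for Xist, 392 in the 6 libraries without Xist, 9 without WT 3 and KO 3, and 16 to 263 with 1 library left out (lowest without WT 3, highest without KO 4). Higher and lower calls split 58 to 31 in the main analysis, 39 to 65 with TMM factors, 37 to 51 after quantile normalization and 37 to 55 in edgeR. Members called numbered 1 with TMM factors, array weights, edgeR, the term for Xist or the 6 libraries, 2 in DESeq2, and 0 to 1 with 1 library left out. Genes of the other lists numbered 0 with no filter, 2 without a variance trend, 7 with array weights or the term for Xist, 11 in the 6 libraries, 1 without WT 3 and KO 3, and 1 to 11 with 1 library left out. The cause of these changes was not tested.

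Direction changed, in relative log2 fold change, with 5 RPM added for Foxo1 (0.02), Trim55 (0.02), Wipi1 (0.01) and Sqstm1 (0.03). It changed with no filter for Foxo1 (0.07), Trim55 (0.07), Wipi1 (0.06), Atg5 (0.02) and Sqstm1 (0.07), after quantile normalization for Sqstm1 (0.03), in edgeR (0.11) and DESeq2 (0.09) for Foxo1, and with array weights for Becn1 (-0.02) and Sqstm1 (0.04). In the 6 libraries without Xist it changed for Foxo3 (-0.08), Becn1 (-0.05), Sqstm1 (0.08) and Ctsl (-0.04). Without WT 3 and KO 3 it changed for Foxo1 (0.09), Tgif1 (-0.19), Trim54 (0.01), Ube4b (0.03), Becn1 (-0.02), Atg12 (-0.04), Sqstm1 (0.15) and Ctsl (-0.02). With 1 library left out the range was -0.32 to 0.19 for Foxo1, -0.18 to 0.14 for Foxo3, -0.19 to 0.37 for Tgif1, -0.06 to 0.03 for Trim55, -0.07 to 0.08 for Becn1, -0.16 to 0.04 for Atg5, -0.04 to 0.19 for Atg12, -0.12 to 0.09 for Sqstm1 and -0.04 to 0.18 for Ctsl.

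Same-numbered KO and WT libraries did not deviate together (correlations of -0.01, 0.08, -0.12 and -0.09 for numbers 1 to 4). Pairs of different numbers ran from -0.19 (KO 4 with WT 2) to 0.24 (KO 3 with WT 4). No pairing by number was seen, although such correlations cannot exclude it. With the replicate block 81 genes, 0 members and 3 genes of the other lists were called, and Mstn (adjusted p = 0.0520) was not. Each member had at least 63 reads in every library, and the intervals rest on 4 libraries a group.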

Other observations

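The libraries with Xist, KO 4 and WT 1, were the highest of their own group for 5 of the 35 genes (Foxo3, Fbxo40, Fbxo31, Map1lc3a and Ctsb; 14.3%, against 7.82% of all genes tested) and the lowest of their own group for 3 (Tgif1, Trim54 and Fbxo21; 8.57%, against 8.07%). Fbxo31, for example, had 39.4 RPM in KO 4 and 65.9 RPM in WT 1. With 1 such library per group this was not tested.

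Of the 10 tested subunits and accessory proteins of the lysosomal proton pump in the lysosome list, singled out after their values were seen, 9 lay above the median of all genes (range -0.19 to 0.52, median 0.16). An unadjusted p under 0.05 was reached by 3 (30.0%, against 16.1% of all genes tested), and none passed in limma, edgeR or DESeq2. Atp6v1a, the catalytic subunit, averaged 19.6 ± 3.26 RPM in KO and 15.1 ± 2.48 RPM in WT, a relative log2 fold change of 0.23 (limma adjusted p = 0.311). Lpin1 is a lipid phosphatase that takes part in autophagosome clearance in mouse muscle, and it was picked outside the rule for naming pathway genes. It stood at 1633, 1571, 1699 and 1691 RPM in KO and at 909, 1249, 1276 and 1367 RPM in WT. The groups did not overlap (0.35 in relative log2 fold change, limma adjusted p = 0.122), and 7.50% of all genes tested were higher in KO without overlap.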
